A study of Mus musculus with 12 samples.

Results

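*Etv1*, *Etv4*, and *Etv5* are the 3 genes of the PEA3 group of ETS transcription factors. They were taken by gene symbol, matched to NCBI gene identifiers 14009, 18612, and 104156, from the 45777 genes of the deposited tables. All 3 were above 0 in every library and passed the filter on low values in every comparison. RNA-seq had been run on the ventral spinal cord of mouse embryos at the embryonic stage E12.5, cut around a fluorescent *Hb9::GFP* reporter that marks motor neurons (MNs) and that both genotypes carried. The 12 libraries form 4 groups of 3, brachial Het and brachial KO from the forelimb level and lumbar Het and lumbar KO from the hindlimb level. Het embryos (*Isl2* +/-, labelled cnt) carried 1 null allele of the LIM homeodomain gene *Isl2*, and KO embryos carried 2 null alleles in every cell of the body, so that no comparison here is with a wild-type embryo. The tissue was a dissected piece and not sorted cells, and each library came from the series' 3 animals per genotype without a label that names the animal, so brachial and lumbar libraries of a genotype share animals. Values are TPM (transcripts as a share of a library, corrected for gene length), rescaled between libraries by size factors.

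PEA3 factors bind DNA through an ETS domain and are induced where receptor tyrosine kinases activate the ERK pathway. In the limb levels of the spinal cord, *Etv4* and *Etv1* are known as markers of motor pools, the groups of MNs that innervate single muscles. *Etv4* in its pools is induced by glial cell line-derived neurotrophic factor (GDNF) from the limb and is needed for MN settling position and arbor growth, whereas *Etv5* is best known from FGF-responsive progenitors, glia, and kidney.

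The coding sequences of the 3 genes are shown where they are most alike, because reads of near-identical genes could be counted for the wrong member. The longest coding transcript of each gene was taken from GENCODE (build GRCm38, the build of mm10). The stretch of 90 bases with the most identical positions lay in the last 2 exons, in the part that encodes the ETS domain. In the lines below, 5′ to 3′ on the coding strand, capitals mark the bases that are not the same in all 3 genes, and 74 of 90 positions were identical. *Etv1* is on the plus strand and the other two are on the minus strand, and each stretch crosses an intron.
Etv1, exons 13 and 14, chr12:38861362-38865610: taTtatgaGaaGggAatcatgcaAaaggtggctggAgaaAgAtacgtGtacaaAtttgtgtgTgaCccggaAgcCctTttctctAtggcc
Etv4, exons 12 and 13, chr11:101770528-101770995: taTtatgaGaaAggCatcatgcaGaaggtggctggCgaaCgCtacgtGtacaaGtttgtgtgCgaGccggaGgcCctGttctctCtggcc
Etv5, exons 12 and 13, chr16:22383629-22386783: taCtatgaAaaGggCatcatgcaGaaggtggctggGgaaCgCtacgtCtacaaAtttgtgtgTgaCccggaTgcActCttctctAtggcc
*Etv1* and *Etv4* had 12 mismatches in this stretch, *Etv1* and *Etv5* had 11, and *Etv4* and *Etv5* had 12. Over the whole aligned coding sequence, 62.9% of bases were identical between *Etv1* and *Etv4*, 68.1% between *Etv1* and *Etv5*, and 61.2% between *Etv4* and *Etv5*. The longest run of identical bases was 18 for the first pair and 23 for each of the others. Other transcripts and untranslated regions were not compared.

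The aligned bases of a library came to 4.48 to 6.64 Gb. Mean coverage per base, worked out from FPKM and this depth, was 8.12 to 14.2 reads for *Etv1*, 12.6 to 93.7 for *Etv4*, and 6.72 to 25.4 for *Etv5*. The deposited coverage was lower, at 1.49 to 2.92 for *Etv1*, 11.7 to 87.8 for *Etv4*, and 5.94 to 19.8 for *Etv5*, and which of the figures gives the depth of these genes with several transcripts was not settled. *Isl2* itself, the gene inactivated, was 8.69, 8.29, and 9.68 TPM in brachial Het and 6.01, 7.25, and 4.46 TPM in brachial KO. At the lumbar level, it was 10.3, 8.40, and 9.39 TPM in Het and 7.30, 6.51, and 8.21 TPM in KO. After rescaling, the KO libraries were below the Het libraries at both levels without overlap, but none was near 0. In TPM as deposited, brachial KO replicate 2 (9.08 TPM) was above all 3 brachial Het libraries (8.61, 8.73, and 9.04 TPM). The log2 difference was −0.61 (SE 0.18) at the brachial level, where it was called (as in 17 of 19 alternative settings), and −0.35 (SE 0.13) at the lumbar level, where it was smaller than the threshold given below. Values per gene do not separate the inactivated part of the *Isl2* allele from the rest of the transcript.

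To examine whether the level of PEA3 transcripts depended on *Isl2*, KO was compared with Het separately at each limb level. *Etv4*, which lies on chromosome 11 from 101769747 to 101785310 on the minus strand, was 30.1, 26.4, and 27.1 TPM in brachial Het and 22.3, 20.5, and 20.5 TPM in brachial KO. In lumbar Het, it was 10.6, 8.75, and 15.5 TPM, and in lumbar KO it was 4.74, 6.37, and 5.73 TPM. Each KO library was below each Het library of its level, and lumbar Het replicate 3 was the highest of the lumbar set. *Etv4* therefore had 4 separate ranges after rescaling, from brachial Het at the top through brachial KO and lumbar Het to lumbar KO at the bottom. In TPM as deposited, brachial KO replicate 2 (25.7 TPM) was above brachial Het replicate 3 (25.3 TPM), so the brachial ranges overlapped.

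**Figure D1:**
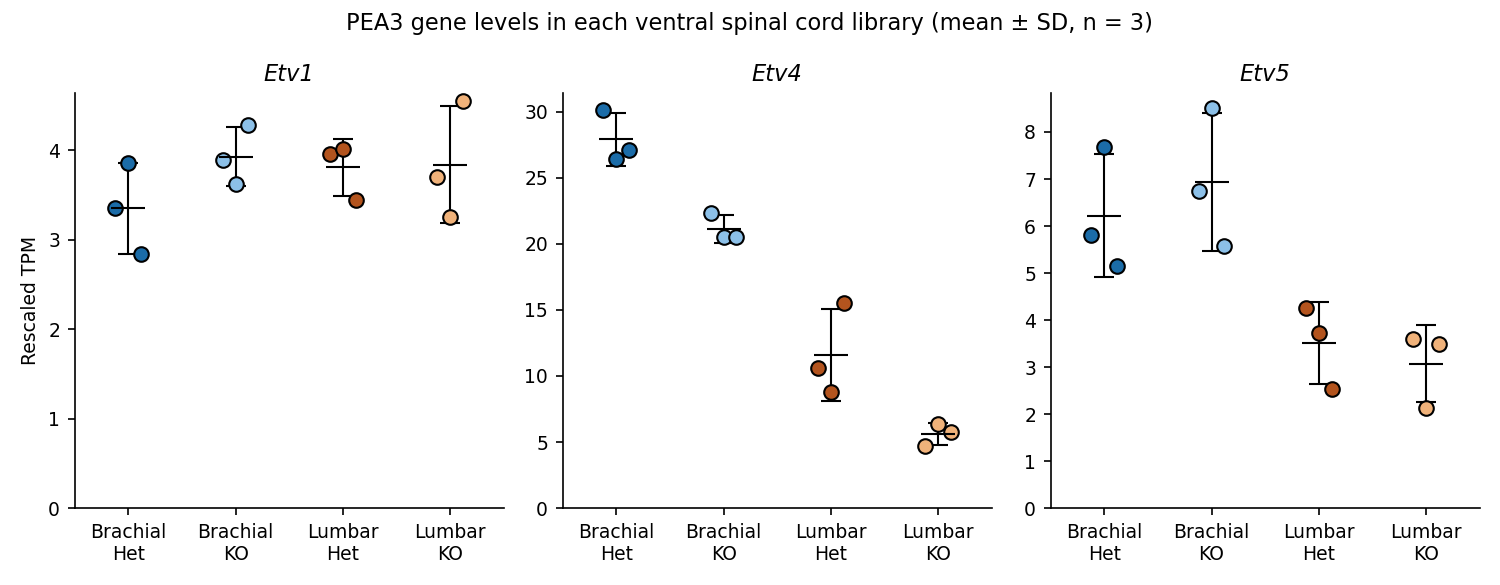
Rescaled TPM of *Etv1*, *Etv4*, and *Etv5* in each library. The y axis is linear and starts at 0, each point is 1 library in the order of its replicate number, and bars are the mean and SD of 3 libraries. On this rescaled scale *Etv4* falls into 4 ranges that do not overlap, *Etv5* separates brachial from lumbar libraries, and the 4 groups of *Etv1* overlap.

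*Etv4* fell in the lumbar KO. The mean was 5.61 ± 0.822 TPM (SD, n = 3) against 11.6 ± 3.47 TPM (SD, n = 3) in Het. The log2 difference was −1.005 (SE 0.21, 95% interval −1.50 to −0.51) on the scale of log2(TPM + 0.1), a 2.01-fold lower level. It passed the threshold of the study (a log2 difference beyond 0.5 with an unadjusted p under 0.05) with an unadjusted limma p of 0.00156, and 0.794% of the 16620 genes tested at this level passed it in the same direction. It did not pass correction over all genes, with a Benjamini-Hochberg adjusted p of 0.964 from limma, and no gene at the lumbar level did so, although 808 (4.86%) had an unadjusted limma p under 0.05. The share of all tested genes with a limma p this small was 0.108%. *Etv4* was chosen here with results of these libraries known, so its place among all genes is not independent evidence.

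At the brachial level, the mean of *Etv4* was 21.1 ± 1.04 TPM (SD, n = 3) in KO and 27.9 ± 1.98 TPM (SD, n = 3) in Het. The log2 difference of −0.40 (SE 0.08, 95% interval −0.59 to −0.20) was smaller than the 0.5 of the threshold, so it was not called, while its unadjusted limma p was 0.00173 and its adjusted limma p 0.357. With TPM as deposited, the brachial log2 difference was −0.22 with an unadjusted limma p of 0.0814. At this level, 13.9% of all genes had an unadjusted limma p under 0.05. Of the 3 PEA3 genes, 1 had KO libraries below the Het libraries without overlap here, against 10.4% of all genes tested at the brachial level. At the lumbar level, the same held for 1 of 3, against 5.52% of all genes.

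A two-sided exact permutation test of 3 libraries against 3 gave p = 0.1 for *Etv4* at either level, the smallest value that this design allows. The mean log2 difference over both levels was −0.70 for *Etv4*, 0.12 for *Etv1*, and −0.02 for *Etv5*. No test is given for these means, because 3 animals per genotype gave libraries of both levels and 3 animals against 3 allow no exact p below 0.1. In such bulk samples, fewer cells of a type and less RNA per cell cannot be told apart.

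The log2 difference of *Etv4* at the lumbar level minus that at the brachial level was −0.61 (SE 0.25, 95% interval −1.15 to −0.07). This interaction had an unadjusted limma p of 0.0304 and an adjusted limma p of 0.812 in a fit that takes the 12 libraries as independent. An exact permutation test that regrouped genotypes within each level gave p = 0.285, and it takes the libraries as independent too. In TPM, the means went from 27.9 to 21.1 at the brachial level and from 11.6 to 5.61 at the lumbar level. The larger lumbar difference is thus one of log2 values. The interaction was −0.38 without lumbar Het replicate 3 and ran from −0.79 to −0.38 over single libraries left out. A larger difference at the lumbar level did not pass correction, and no gene passed the adjusted threshold in this comparison (0 of 16698), with 738 (4.42%) at an unadjusted limma p under 0.05.

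*Etv1*, on chromosome 12 from 38780082 to 38870483 on the plus strand, was 3.35, 3.86, and 2.84 TPM in brachial Het and 3.89, 3.62, and 4.28 TPM in brachial KO. In lumbar Het, it was 3.96, 4.02, and 3.44 TPM, and in lumbar KO it was 3.70, 3.26, and 4.55 TPM. The libraries of every group overlapped with those of the others. The log2 difference between KO and Het was 0.23 (95% interval −0.15 to 0.61, limma, adjusted p = 0.487) at the brachial level. Without brachial Het replicate 3 it was 0.12, and with TPM as deposited 0.40, neither of which was called. At the lumbar level it was 0.00 (95% interval −0.39 to 0.39, limma, adjusted p = 1.0), an interval that does not reach the lumbar value of *Etv4*.

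*Etv5*, on chromosome 16 from 22381313 to 22439570 on the minus strand, was 5.80, 7.69, and 5.16 TPM in brachial Het and 6.74, 8.50, and 5.58 TPM in brachial KO. In lumbar Het, it was 4.26, 3.72, and 2.54 TPM, and in lumbar KO it was 3.59, 2.13, and 3.50 TPM. KO and Het libraries overlapped at both levels, whereas every brachial library was above every lumbar library. The log2 difference between KO and Het was 0.15 (95% interval −0.31 to 0.62, limma, adjusted p = 0.714) at the brachial level and −0.19 (95% interval −0.81 to 0.42, limma, adjusted p = 0.999) at the lumbar level. Its lumbar interval holds decreases of up to −0.81. Leaving out KO replicate 2 of the level concerned turned the sign, to −0.000264 in the brachial and 0.0446 in the lumbar comparison.

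**Figure D2:**
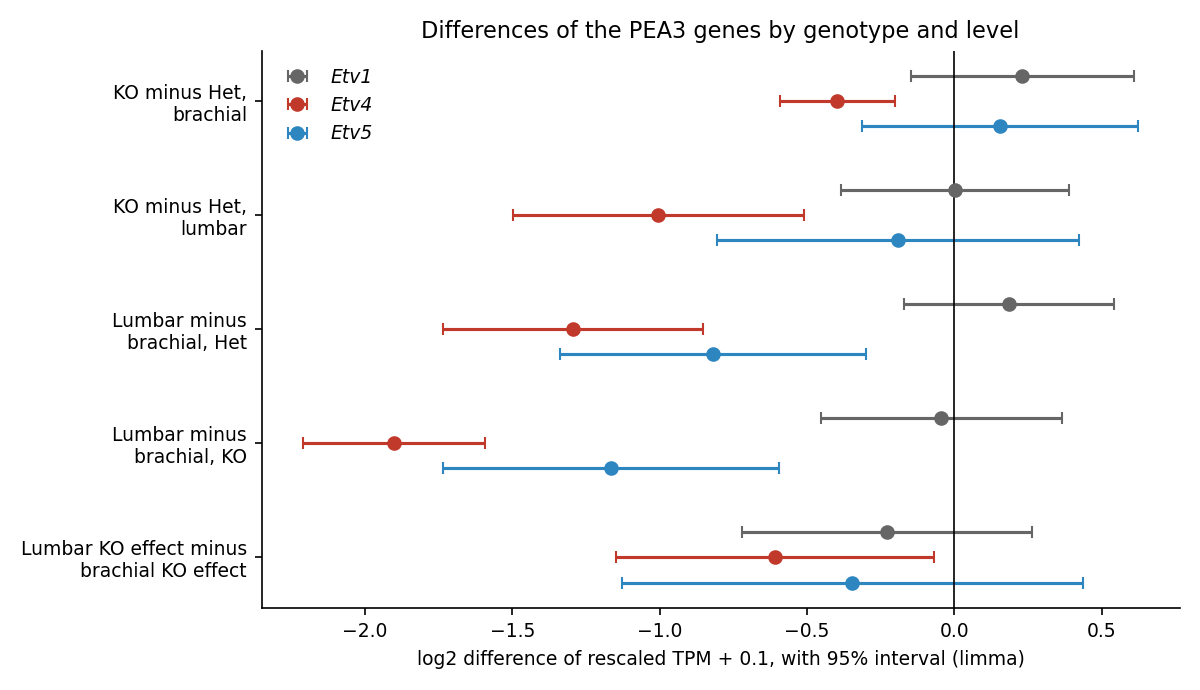
Log2 differences of *Etv1*, *Etv4*, and *Etv5* in 5 comparisons, with the 95% interval of the limma fit. The x axis is the difference of log2(TPM + 0.1), each point is 1 gene, and the vertical line marks no difference. *Etv4* lies at −0.40 and −1.005 between genotypes, and both *Etv4* and *Etv5* lie at −0.82 or below between lumbar and brachial levels.

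Next, the lumbar and brachial levels were compared within a genotype, where a call required an adjusted p under 0.05. *Etv4* was 2.45-fold lower at the lumbar than at the brachial level in Het (log2 difference −1.29, SE 0.19, limma, adjusted p = 0.0175). In KO, it was 3.73-fold lower (log2 difference −1.90, SE 0.13, limma, adjusted p = 0.000648). In Het, 1.97% of all genes tested were called lower at the lumbar level, and in KO 0.959%. The Het call was lost when any 1 of the 3 brachial Het libraries was left out, with limma's adjusted p-values of 0.058, 0.0705, and 0.0602 without replicates 1, 2, and 3, while the log2 difference stayed between −1.52 and −1.11 over all single libraries left out.

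*Etv5* had a log2 difference of −0.82 (SE 0.22, 95% interval −1.34 to −0.30) between lumbar and brachial Het. It was −1.17 (SE 0.25, 95% interval −1.73 to −0.60) between lumbar and brachial KO. Neither passed the adjusted threshold, with adjusted limma p-values of 0.0978 and 0.0541, although 2 of the 3 PEA3 genes had lumbar libraries below brachial ones without overlap in each genotype. Such separation was found for 13% of all genes in Het and 14.2% in KO. *Etv1* gave 0.19 (limma, adjusted p = 0.564) in Het and −0.04 (limma, adjusted p = 0.91) in KO, with overlapping libraries in both. The comparisons within a level and within a genotype share libraries, so their values stand side by side and are not separate evidence.

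The makeup of the PEA3 transcripts was then calculated within each library, which needs no scaling between libraries. *Etv4* made up 76.7, 69.5, and 77.2% of summed PEA3 TPM in brachial Het and 67.7, 62.9, and 67.5% in brachial KO. In lumbar Het, its share was 56.3, 53.0, and 72.1%, and in lumbar KO it was 39.4, 54.2, and 41.6%. The brachial genotypes were apart, whereas lumbar KO replicate 2 was above lumbar Het replicate 2.

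On average, the share of *Etv4* was 74.5 ± 4.28% in brachial Het, 66.0 ± 2.75% in brachial KO, 60.5 ± 10.2% in lumbar Het, and 45.1 ± 7.96% in lumbar KO (SD, n = 3 each). The difference between genotypes was −8.43 percentage points at the brachial level (exact permutation p = 0.1) and −15.4 points at the lumbar level (exact permutation p = 0.2). Without lumbar Het replicate 3, the lumbar difference was −9.63 points. The lumbar difference minus the brachial one was −7.01 points (exact permutation p = 0.555). *Etv1* took 8.94 ± 1.10, 12.3 ± 1.57, 20.5 ± 4.21, and 30.5 ± 2.64% in the same order of groups, and its KO libraries were above the Het libraries at both levels. Shares sum to a whole, so this follows in part from the lower *Etv4*, and the TPM of *Etv1* itself overlapped between genotypes. A share of *Etv5* of 16.6 ± 3.20, 21.6 ± 3.97, 19 ± 6.20, and 24.4 ± 5.95% overlapped between genotypes at both levels.

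**Figure D3:**
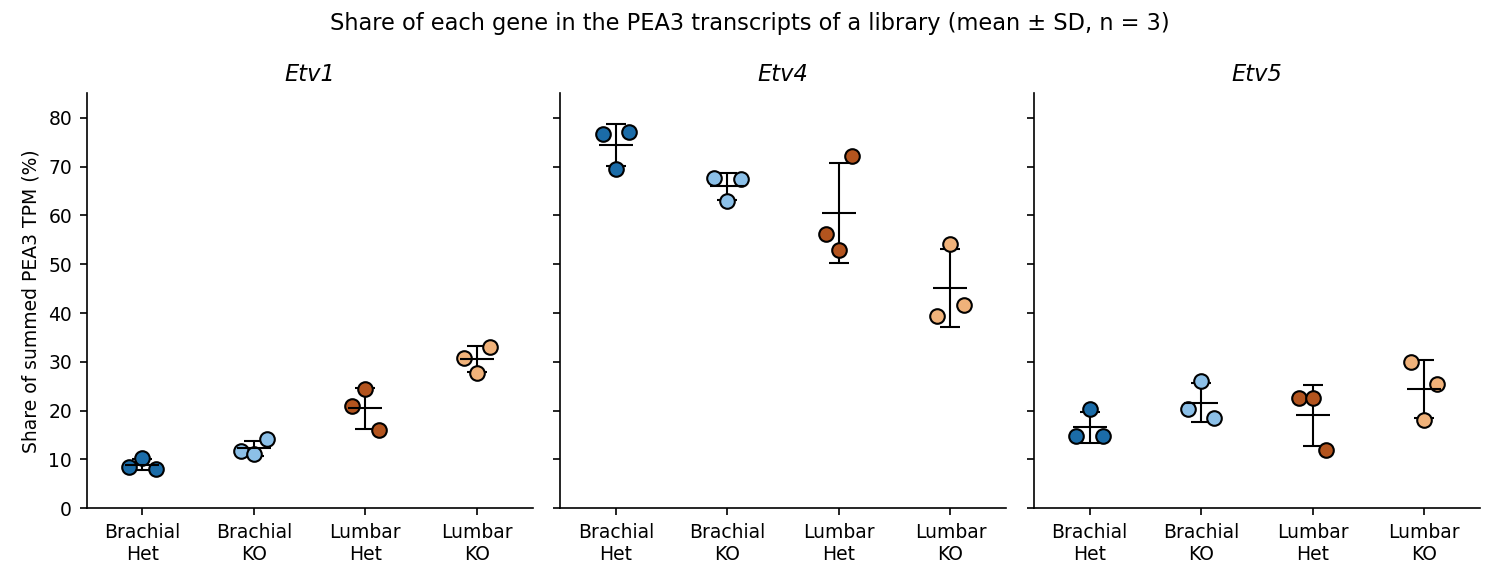
Share of *Etv1*, *Etv4*, and *Etv5* in the summed PEA3 TPM of each library. The y axis is percent from 0, each point is 1 library, and bars are the mean and SD of 3 libraries. The mean share of *Etv4* goes from 74.5% in brachial Het to 45.1% in lumbar KO, and that of *Etv1* from 8.94 to 30.5%.

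*Etv4* was 8.36-fold above *Etv1* in brachial Het, 5.38-fold in brachial KO, 2.97-fold in lumbar Het, and 1.47-fold in lumbar KO, as means of the log2 ratio. The genotype difference of this log2 ratio was −0.64 in brachial and −1.02 in lumbar libraries, which were apart by genotype in both (exact permutation p = 0.1 each). Relative to *Etv5*, *Etv4* was 4.54, 3.09, 3.29, and 1.86-fold higher in the same order, and the genotypes overlapped at both levels (exact permutation p = 0.2 and 0.3). Summed over the 3 genes, PEA3 transcripts were 35.1 to 39.2 TPM in brachial Het, 30.4 to 32.9 in brachial KO, 16.5 to 21.4 in lumbar Het, and 11.8 to 13.8 in lumbar KO. These 4 ranges were apart after rescaling, whereas the brachial sums overlapped in TPM as deposited, at 32.8 to 39.9 in Het and 33.0 to 40.8 in KO.

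To see whether the members moved as the wider family did, the other 24 ETS genes were listed. *Elf2* was the ETS gene of highest level in all 4 groups, at 51.2 to 55.4 TPM. *Etv4* ranked as the second of 27 in brachial Het, the third in brachial KO, the third in lumbar Het, and the ninth in lumbar KO. *Gabpa*, a broadly expressed ETS factor, was 24.1 to 27.2 TPM, so it was close to *Etv4* in brachial Het but well above it in lumbar KO.

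Of the other ETS genes, 14 were tested in brachial and 13 in lumbar libraries. *Elk4*, a cofactor of serum response factor, was higher in brachial KO (3.13 ± 0.483 to 5.47 ± 1.39 TPM, log2 difference 0.77), and 2.21% of all genes were called higher there. It was the only call, and none was made at the lumbar level. The median log2 difference of these genes was −0.01 among brachial and 0.05 among lumbar libraries, against −0.01 in either case for all genes tested. Between levels, none of the other ETS genes was called, against 1.97% of all genes called lower in Het and 0.959% in KO. In Het, 8 of 14 had a negative log2 difference, and 6 were lower at the lumbar level without overlap, against 13% of all genes. In KO, 10 of 13 were negative. Without overlap, 3 were lower there, against 14.2%, and 1 was higher, against 14.9%. The medians were −0.11 in Het and −0.12 in KO.

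**Figure D4:**
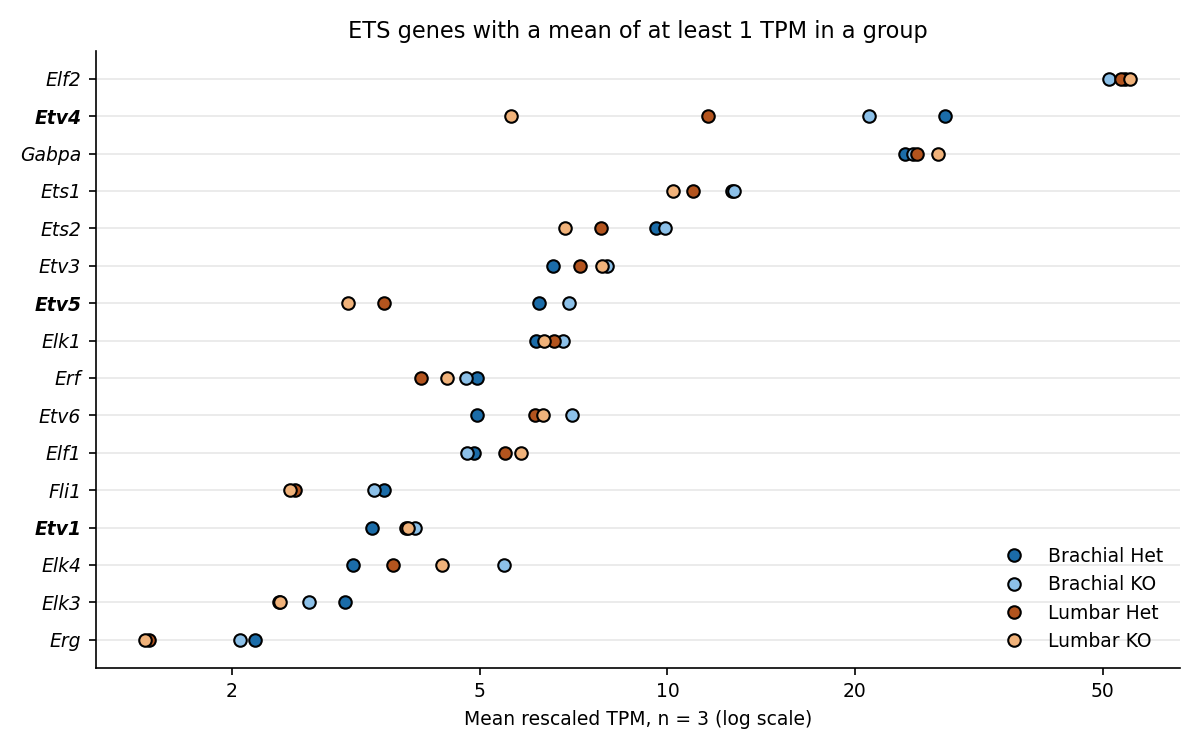
Mean rescaled TPM of the 16 ETS genes that reached 1 TPM in at least 1 group, sorted by their level in brachial Het. The x axis is logarithmic, each point is the mean of 3 libraries, and PEA3 genes are in bold. The points of *Etv4* spread from 5.61 to 27.9 TPM, and those of *Elf2* from 51.2 to 55.4 TPM.

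The genes that signal to *Etv4* in limb MNs were examined as ligands and receptors. *Gdnf* was 0.15 to 0.18 TPM in the 4 groups, below the filter, and *Hgf* was also too low to be tested. The GDNF receptor subunit *Ret* was 23.3 ± 3.93 TPM in lumbar Het and 20.7 ± 3.97 TPM in lumbar KO (log2 difference −0.17, SE 0.17), and the coreceptor *Gfra1* was 63.6 ± 3.22 and 54.0 ± 5.68 TPM (−0.24, SE 0.09). *Met*, which encodes the receptor of hepatocyte growth factor, was 22.3 ± 1.70 and 18.0 ± 0.701 TPM (−0.30, SE 0.09).

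None of the 7 tested genes of GDNF and HGF signalling passed the genotype threshold at either level, which at most 2.21% of all genes passed in a direction. At the lumbar level, 6 of the 7 had a negative log2 difference, 2 were lower in KO without overlap, against 5.52% of all genes, and 2 (*Met* and *Gfra1*) had an unadjusted limma p under 0.05 (0.00852 and 0.0301), against 4.86%. The median log2 difference of the list was −0.24 there and 0.03 at the brachial level, where no gene had an unadjusted limma p under 0.05. Between levels in Het, *Met* was higher (log2 difference 0.77, limma, adjusted p = 0.00473) and *Gfra4*, the persephin coreceptor, was lower (−0.78, limma, adjusted p = 0.0235) at the lumbar level. Of all genes, 0.969% were called higher there and 1.97% lower. None of the 7 was called between levels in KO. The *Met* call held in 19 of 19 alternative settings and the *Gfra4* call in 13.

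FGF ligands and receptors, which act upstream of PEA3 genes in progenitors, gave 0 calls of 6 tested genes at the brachial and 0 of 7 at the lumbar level. Feedback genes that ERK signalling induces together with PEA3 genes gave 0 calls of 10 at both levels. *Dusp6*, an ERK phosphatase, was 16 ± 1.58 TPM in lumbar Het and 13.9 ± 1.05 TPM in lumbar KO (log2 difference −0.20, SE 0.11). *Spry4*, an inhibitor of receptor tyrosine kinase signalling, was 0.771 ± 0.210 and 0.564 ± 0.157 TPM (−0.39, SE 0.34). Between levels, *Flrt3*, which binds FGF receptors, was lower in lumbar than brachial libraries in Het (−0.43, limma, adjusted p = 0.0156) and in KO (−0.55, limma, adjusted p = 0.0465). Of all genes, 1.97% and 0.959% were called lower. The *Flrt3* calls held in 14 and 9 of 19 alternative settings. In each genotype, 7 of the 10 feedback genes had a negative log2 difference, *Dusp6* at −0.25 in Het and −0.33 in KO. Without overlap, 3 were lower in Het and 4 in KO, against 13% and 14.2% of all genes, and 1 was higher in Het, against 12.9%. The part of this list in the level differences of *Etv4* and *Etv5* was not tested.

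PEA3 transcripts and proteins are held down by the Capicua repressor and by ubiquitin ligases. None of the 5 genes of this kind was called in either genotype comparison, where at most 2.21% of all genes were called in a direction. *Cic*, which encodes Capicua, was 14.5 ± 3.16 TPM in lumbar Het and 13.9 ± 2.70 TPM in lumbar KO (log2 difference −0.05, SE 0.19). *Cop1*, a ligase that marks PEA3 proteins for degradation, was 26.2 ± 1.78 and 27.3 ± 1.60 TPM (0.06, SE 0.09).

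Of 8 genes reported to depend on PEA3 factors, 1 fell in lumbar KO, against 0.794% of all genes. *Sema3e*, a repulsive ligand of plexin D1 that is known to need *Etv4* in brachial motor pools, went from 2.02 ± 0.270 to 1.11 ± 0.0930 TPM (log2 difference −0.80, SE 0.21, limma, adjusted p = 0.979). At the brachial level, *Sema3e* was 2.78 ± 0.268 and 2.88 ± 0.38 TPM (0.05, SE 0.17). *Cdh8*, a cadherin also linked to *Etv4* in motor pools, was 18.2 ± 5.13 and 16.9 ± 5.11 TPM at the lumbar level (−0.11, SE 0.27).

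*Ntrk3*, the receptor of neurotrophin-3, passed the threshold as higher in brachial KO (14.7 ± 1.90 to 22 ± 6.66 TPM, log2 difference 0.54), a call that 9 of 19 alternative settings kept. The median log2 difference of this list was 0.00 at the lumbar and 0.06 at the brachial level.

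Genes that the study places in *Etv4* pools of the lumbar cord were compared last. Of the 15, the study took 12 from the genes that it found lower in lumbar KO in these same libraries, so their direction there was fixed by the choice. These 12 were called lower in KO at the lumbar level, where 0.794% of all genes were, and the median of all 15 was −0.67. None of the other 3 was called, with log2 differences of 0.19 for *Epha3*, 0.01 for *Sema5a*, and −0.28 for *Fgf10*. *Uts2b*, a urotensin 2-like peptide gene, went from 21.9 ± 0.557 to 9.75 ± 1.23 TPM (−1.17, SE 0.11). *Chodl*, a lectin gene, went from 21.7 ± 2.70 to 13.5 ± 0.473 TPM (−0.675, SE 0.11). *Kcnab1*, a potassium channel subunit, went from 14.9 ± 1.93 to 8.61 ± 0.698 TPM (−0.775, SE 0.12), and *Anxa2*, a membrane-binding annexin, from 84.1 ± 3.51 to 58.5 ± 2.27 TPM (−0.52, SE 0.07).

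At the brachial level, where *Etv4* had the higher level, 1 of 14 of these genes was called lower, against 0.871% of all genes, and 1 was called higher, against 2.21%. Without overlap, 6 of 14 were lower in KO, against 10.4% of all genes, and 8 of 14 had an unadjusted limma p under 0.05, against 13.9%. *Uts2b* was lower by −1.09 (25.4 ± 0.441 to 11.9 ± 0.537 TPM, limma, adjusted p = 0.0174), the only gene (0.00596%) of all 16768 tested with an adjusted p under 0.05 there. *Sema5a*, an axon guidance gene, was higher (5.73 ± 0.735 to 8.73 ± 2.75 TPM, 0.56), a call that 9 of 19 alternative settings kept. The median of the list was −0.11, and it turned to 0.063 with TPM as deposited.

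**Figure D5:**
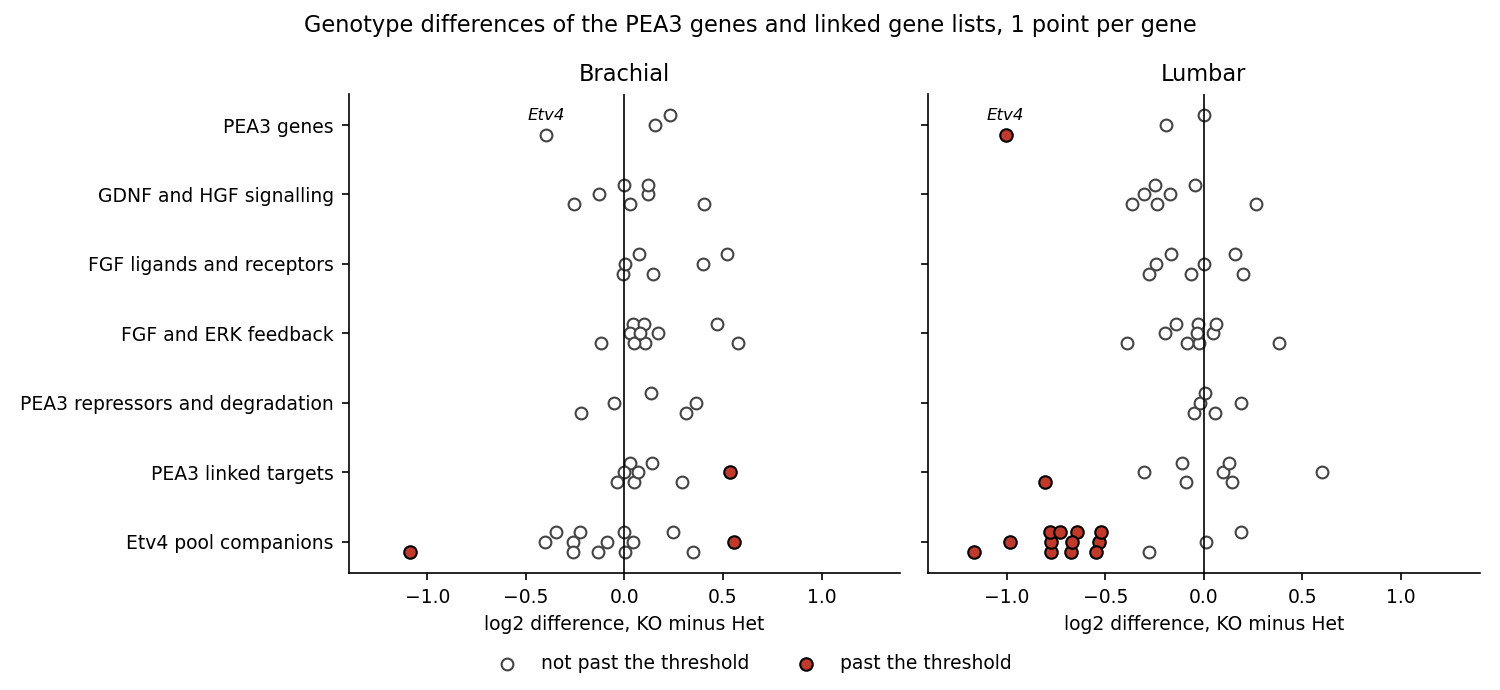
Log2 difference between KO and Het of each tested gene, at the brachial level on the left and at the lumbar level on the right. Rows are gene lists, each point is 1 gene, vertical offsets only separate points, and filled points passed a log2 difference beyond 0.5 with an unadjusted p under 0.05. In the lumbar panel, 12 of the 15 pool companions are filled and lie below 0, and no gene of the GDNF, FGF, feedback, or repressor lists is filled.

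Marker lists were read beside the *Etv4* values. All 10 MN markers were detected in every group, and 1 of them (*Prph*, a peripherin gene that is also a pool companion) was called lower in lumbar KO and 1 (*Isl2*) in brachial KO, against 0.794 and 0.871% of all genes. At the lumbar level, 9 of 10 had a negative log2 difference, and 4 (*Chat*, *Slc5a7*, *Isl2*, and *Prph*) were lower in KO without overlap, against 5.52% of all genes. Their summed level was 269 to 352 TPM in lumbar Het and 209 to 292 TPM in lumbar KO. At the brachial level, 4 of 10 were lower in KO without overlap, against 10.4% of all genes. Without *Isl2* and *Prph*, the other 8 had a median log2 difference of −0.17 at the lumbar level, from −0.40 for *Chat* to 0.23 for *Lhx4*, and 0.08 at the brachial level.

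Divided by the summed level of these 8 markers, *Etv4* had a genotype difference of −0.88 on the log2 scale at the lumbar and −0.39 at the brachial level, with libraries still apart at both (exact permutation p = 0.1 each). None of the tested progenitor, mesenchyme, endothelium, Schwann and crest, or sensory ganglion markers was called in lumbar KO. Of 8 progenitor markers, 6 had a positive log2 difference there, with a median of 0.13, and *Sox2* and *Hes5* were higher without overlap, against 4.42% of all genes. The part of MN and progenitor markers in the lumbar difference of *Etv4* was not tested. The sensory genes *Runx3* and *Scn10a* were at 0 in every library. In lumbar KO, 1 of 7 dorsal interneuron markers, *Ptf1a*, was called higher (against 0.981% of all genes), and 0 of 7 ventral interneuron markers were called. In brachial KO, 1 ventral interneuron marker (*Gata3*) and 1 sensory marker (*Prdm12*) were called higher, against 2.21% of all genes. The *Gata3* call held in 16 of 19 and the *Prdm12* call in 8 of 17 alternative settings.

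Markers of other cell types were also read between the levels. Endothelial markers summed to 77.9 to 83.0 TPM in brachial Het and 51.7 to 56.5 TPM in lumbar Het, all 6 had a negative log2 difference, and 1 (*Cldn5*) was called lower, against 1.97% of all genes. Without overlap, 5 of the 6 were lower, against 13% of all genes. In KO, their sums of 61.3 to 80.2 and 49.5 to 62.8 TPM overlapped, none was called, and 2 of 6 were lower without overlap, against 14.2%. Mesenchyme markers summed to 67.7 to 91.1 TPM in brachial Het and 58.8 to 65.8 TPM in lumbar Het, with none of 4 tested called and with *Prrx1*, *Col1a1*, *Twist1*, and *Lum* under 0.5 TPM. Progenitor markers summed to 2870 to 3270 TPM in brachial Het and 2430 to 2900 TPM in lumbar Het, sums that overlapped and are mostly *Fabp7*. Of the 8, 5 had a positive log2 difference at the lumbar level in either genotype, with medians of 0.22 in Het and 0.27 in KO, and 4 were higher without overlap, against 12.9% of all genes in Het and 14.9% in KO. *Hes5*, a Notch target, was called higher in KO (log2 difference 0.70, limma, adjusted p = 0.0446), against 0.816% of all genes, and 9 of 19 alternative settings kept this call. Of the sensory markers, *Nefh*, a neurofilament gene, was called lower at the lumbar level in both genotypes (log2 differences −1.19 and −1.02), and *Runx1* was called lower in KO. Of all genes, 1.97% were called lower in Het and 0.959% in KO. The *Nefh* call held in 18 of 19 alternative settings in Het but in 6 of 19 in KO, and the *Runx1* call in 8 of 13. *Runx1*, which is also among the limb motor column factors below, had a mean under 0.5 TPM in both lumbar groups. The part of these marker lists in the level differences of *Etv4* and *Etv5* was not tested.

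MN markers did not move together between the levels. Of the 10, 2 were called lower at the lumbar level in both genotypes, against 1.97% of all genes in Het and 0.959% in KO, and all these calls held in 19 of 19 alternative settings. *Slc5a7*, the choline transporter gene, had a log2 difference of −0.89 in Het and −1.30 in KO, and *Prph* had −2.36 and −2.88. The other 8 all had a positive log2 difference in Het, and 7 of them did in KO. The part of the MN markers in the level difference of *Etv4* was not tested. Divided by the summed level of the 8 markers that leave out *Isl2* and *Prph*, *Etv4* and *Etv5* had log2 differences between lumbar and brachial Het of −1.44 and −0.98, with no overlap (exact permutation p = 0.1 each).

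The level labels held in *Hox* genes, which pattern the body axis. Of 11 limb-level *Hox* genes, *Hoxc5*, *Hoxc6*, and *Hoxc8* were lower and 7 posterior genes were higher at the lumbar level in both genotypes. Of all genes, 0.969% were called higher and 1.97% lower in Het, and 0.816% and 0.959% in KO. *Hoxc11* was the only one of the 11 called between genotypes, from 10.7 ± 2.46 TPM in lumbar Het to 6.17 ± 1.61 TPM in lumbar KO (log2 difference −0.79), against 0.794% of all genes called lower. Of 16 factors of limb motor columns, *Isl2* was called lower and the homeobox gene *Nkx6-1* higher (2.68 ± 0.259 to 4.32 ± 1.31 TPM, 0.64) in brachial KO, against 0.871% of all genes called lower and 2.21% called higher, and none was called in lumbar KO. The *Nkx6-1* call held in 16 of 19 alternative settings.

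The genome around each member was inspected for differences that were not particular to it. *Etv4* had 24 annotated neighbours within 250 kb. At the lumbar level, 0 of 12 tested neighbours were called, and their log2 differences ran from −0.019 to 0.367. *Dhx8*, an RNA helicase gene whose span ends 2.39 kb from that of *Etv4*, was at −0.003.

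At the brachial level, 4 of 13 neighbours of *Etv4* were called lower, against 0.871% of all genes, and all 4 are annotated as small nuclear RNA genes, among them the U2 gene *Rnu2-10*. U2 genes have nearly identical copies among which reads may be split, so these values are uncertain. *Gm39392*, a non-coding gene on the opposite strand that begins 0.01 kb from the start of *Etv4*, was at 0.0155 TPM over the 12 libraries. *Etv1* had 1 tested neighbour (*Dgkb*, a diacylglycerol kinase gene) and *Etv5* had 3, and none was called between genotypes.

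Genes with the pattern most like that of each member were found by Pearson's r over the 12 libraries after the mean of each level was removed, among 12560 protein-coding genes. For *Etv4*, they were *Tmem132c* (r = 0.913), *Spin2c* (0.906), *Ntf3* (0.904), *Nit1* (0.88), and *Sri* (0.878). *Ntf3*, which encodes neurotrophin-3, was 25.7 and 16.2 TPM in lumbar Het and KO. None of these 5 was among the 5 most alike when group means, or no means, were removed.

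For *Etv5*, the most alike genes were *Chd5* (r = 0.978), *Dner* (0.969), *Car10* (0.965), *Nwd1* (0.953), and *Nrg3* (0.945), and 3 of these 5 stayed when group means were removed. *Pcdhgb7* (r = 0.935), *Brpf3* (0.931), *Tox* (0.916), *Eri2* (0.906), and *Acvr2a* (0.901) were most like *Etv1*, of which 3 stayed. Between members, r was 0.557 for *Etv1* and *Etv5*, −0.148 for *Etv4* and *Etv5*, and −0.307 for *Etv1* and *Etv4*. With group means removed, it was 0.56, −0.632, and −0.365 for the same pairs. These coefficients describe 12 libraries that share groups and size factors, and no test was made of them.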

How the data were processed

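Libraries were made from total RNA with a stranded, ribosomal RNA-depleted kit. In each library, the authors cleaned reads with Trimmomatic 0.38, aligned them to the mm10 genome by HISAT2 2.1.0 and Bowtie2 2.3.4.1, and assigned abundance by StringTie 2.1.3b. The gene annotation, the read length, and the use of strand in counting are not given in the sources used here. StringTie wrote the TPM, FPKM, and coverage that the authors deposited. The deposited TPM sums to a fixed total per library, the deposited FPKM is scaled by length and depth, and the deposited coverage is the mean number of reads over a base. Coverage divided by FPKM gave the depth and was the same, within 1%, for 94.1 to 95.7% of single-transcript genes of a library. There were no count columns, so the test is one for log values and the counting error is unknown.

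Symbols came from RefSeq (GRCm38.p6) for 45679 of 45777 NCBI identifiers, and 96.4% had identical coordinates. Lines of 6 identifiers listed more than once were summed.

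TPM was divided by median-of-ratios size factors over the 12 libraries (0.896 to 1.25). A linear model of log2(TPM + 0.1) was made in limma 3.58.1 (eBayes with trend, R 4.3.3) for genes of mean TPM of at least 0.5, with Benjamini-Hochberg adjustment over them. This scale understates changes of low genes. The script was tested on simulated data. Genotypes were compared in the 6 libraries of a level, levels in the 6 of a genotype, and the interaction in all 12. The libraries of a genotype come from 3 animals and the labels do not tie them to these, so p-values measure the spread between these libraries. Coding sequences (GENCODE) were aligned with MAFFT 7.526.

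The named genes were the members, *Isl2*, up to 4 called genes of smallest p per list and comparison, *Ret*, *Gfra1*, *Gdnf*, *Met*, *Cic*, *Spry4*, *Dusp6*, *Sema3e*, and *Cdh8*, the 5 genes most like each member, and neighbours within 250 kb. *Cop1*, *Epha3*, *Fgf10*, *Sox2*, *Hes5*, *Elf2*, *Gabpa*, *Hgf*, *Fabp7*, *Prrx1*, *Col1a1*, *Twist1*, *Lum*, *Chat*, *Slc5a7*, *Lhx4*, *Runx3*, and *Scn10a* were picked after their values were seen. The members and all lists were chosen with earlier results of these data known. Alternatives were other pseudocounts, filters, units, normalizations, and fits, and single libraries left out.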

Additional observations from a re-analysis of the deposited data

How the results depend on the processing

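Each difference of a PEA3 gene was computed again under 19 other settings, or 23 for the interaction. *Etv4* kept its direction and its side of the threshold in all 19 at the lumbar level (−1.02 to −0.903, and −1.19 to −0.779 with single libraries left out) and at the brachial level (−0.412 to −0.222, and −0.438 to −0.34). The lower *Etv4* of lumbar Het against brachial Het stayed at −1.294 but passed 0.05 no longer without the filter on low values (limma, adjusted p = 0.0604) or without the limma trend (limma, adjusted p = 0.0538), and ran from −1.52 to −1.11 with single libraries left out. *Etv5* between levels in KO passed the threshold with a pseudocount of 1 (−0.968), a mean TPM of at least 1 (−1.165), FPKM (−1.139), TPM as deposited (−1.384), and all 12 libraries in one fit (−1.165, limma, adjusted p = 0.0171). The interaction of *Etv4* ran from −0.79 to −0.382 with single libraries left out, and to −0.772 with TPM as deposited. Its lumbar share difference ran from −20.0 to −9.63 points and its brachial one from −10.9 to −6.84. *Etv1* between brachial genotypes ran from 0.121 to 0.335, and to 0.402 with TPM as deposited. Values near 0 turned sign. *Etv1* at the lumbar level was −0.008002 with quantile normalization and −0.125 to 0.108 with libraries left out, and between levels in KO 0.0296 and −0.171 to 0.0629. *Etv5* between genotypes ran from −0.000264 to 0.316 at the brachial and −0.402 to 0.0446 at the lumbar level. The cause was not tested.

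With the replicate number as a block, *Etv4* was at −1.005 (SE 0.20) at the lumbar and −0.397 (SE 0.07) at the brachial level, and no call of a member was altered. Deviations of same-numbered libraries correlated from −0.21 to 0.23 between genotypes. Between levels they were −0.022, 0.2, and 0.34 in Het, with −0.31 to 0.13 for unlike numbers, and 0.031, −0.21, and 0.071 in KO. As not every pair exceeded 0.1, the numbers were not taken as pairs, though the levels share animals. TPM as deposited moved the median log2 difference of all genes to 0.161 between brachial genotypes and −0.215 between levels in KO. The count of pool companions lower in lumbar KO ran from 10 to 12. The settings of size factors over other libraries or genes, and of coverage, were chosen after seeing the data. Planned count-based alternatives were not run, as no counts are in the tables. Counting error is unknown, so no limit set by depth is given.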
